A study of Mus musculus with 23 samples.

Results

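The genes described here encode enzymes that split esters or that oxidise and reduce carbonyl groups and other small molecules: carboxylesterases (Ces), aldehyde dehydrogenases (Aldh), aldo-keto reductases (Akr), carbonyl reductases (Cbr) and flavin-containing monooxygenases (Fmo). They were taken from the scanner files by gene name, as every spot whose name starts with Ces, Aldh, Akr1, Akr7, Cbr or Fmo and a number, with the Akr1b genes, Aldh1a1, Aldh1a2 and Aldh3a1 left out. For Akr1 and Akr7 no further number was required, so Akr1cl was counted in. This gave 75 probes of 60 genes, of 55681 probes and 34741 gene names on the array.

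The samples were small intestinal scrapings of adult male C57BL/6J mice. After 3 weeks on a normal-fat diet, all mice received a high-fat diet for 12 weeks, alone (HF, 12 mice) or with 0.33% by weight of the plant flavonol quercetin (HF-Q, 11 mice), and food was withheld for 2 to 4 hours before they were killed. Both groups therefore ate the high-fat diet, and no mouse stayed on the normal-fat diet. The study started with 24 mice, and the authors excluded a quercetin-fed animal because of an abscess. Every mouse had its own array. Its RNA carried Cy5, a pool made from all mice carried Cy3, and dyes were not exchanged, so each value is a log2 ratio of a mouse to the pool. The arrays lay on 3 slides, with 4, 4 and 4 HF mice and 4, 3 and 4 HF-Q mice.

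In the intestinal lining these enzymes act on what is swallowed and on what the cell makes. Carboxylesterases of the endoplasmic reticulum hydrolyse ester drugs, retinyl esters and stored lipid, and the Ces2 enzymes are the main ester hydrolases of the gut. Aldehyde dehydrogenases oxidise aldehydes from alcohol, lipid peroxidation, amino acids and retinal. Aldo-keto and carbonyl reductases turn aldehydes and ketones into alcohols, and flavin-containing monooxygenases add oxygen to nitrogen and sulfur atoms of small molecules.

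Depth and tissue were checked first. Between 27085 and 31525 probes per array were well above background in Cy5. All 12 enterocyte markers listed were above background on all 23 arrays. A protocol field names liver as the extracted tissue, against the other labels. Of 10 hepatocyte markers, 2 (Ahsg and Mup3) were detected on no array, Fgb and Hpx on 2 and Alb on 11, and the other 5 on all 23. The pancreatic acinar markers varied most between mice, with a mean log2 ratio of -2.99 to 1.69 in HF and -3.12 to 2.03 in HF-Q.

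Because several of these genes are near-identical neighbours, the probe sequences decide which transcript is read. All probes were 60 bases long, and 7 of the 75 span more than 60 bases of genome build mm9 and so cross a splice junction. Exon and UTR positions of the other probes were not analysed here. The Ces2b probe (chr8:107362421-107362480, plus strand) and a Ces2c probe (chr8:107378258-107378317, plus strand) share a run of 24 bases, shown in capitals within 30 bases of each, 5′ to 3′.
Ces2b: attTGTCACCTCAGTCTTTGAGCTTTCctg
Ces2c, probe with the shared run: atcTGTCACCTCAGTCTTTGAGCTTTCatg
Another Ces2c probe was the brightest and supplied the Ces2c values. It lies at chr8:107378105-107378164 and ends, after 19 codons with no other stop in that frame, in a stop codon, shown in capitals.
Ces2c, probe used: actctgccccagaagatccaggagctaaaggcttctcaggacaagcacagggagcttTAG
The scanner files list transcripts of Ces2b and of the pseudogene Ces2d-ps for the used Ces2c probe too, and Ces2d-ps for the other Ces2c probes. The Ces3a probe lists a Ces3b transcript. Values of Ces2b and Ces2c, and of Ces3a and Ces3b, are therefore uncertain as to which neighbour they come from.

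The last 30 bases of the probes of the genes whose values are followed most closely below are given to show what each value was read from. Capitals mark AATAAA, the usual polyadenylation signal, searched on the probe's own strand only.
Ces3a: gtccagcacattAATAAAgctcttcagagg
Aldh16a1: catggcttctAATAAActgagtgactttaa
Aldh1a3: gttcagcaatgaaaaAATAAAgttggacac
Fmo5: acatgctgAATAAAtgctcgttgatatgta
Fmo1: ataacgttccaactcctctaatgtaacaac
These probes lie, in the same order, at chr8:107582236-107582295 (plus strand), chr7:52397210-52397269 (minus), chr7:73535785-73535844 (minus), chr3:97456410-97456469 (plus) and chr1:164760037-164760096 (minus), all on mm9. AATAAA was present in 12 of the 75 probes (16%), against 10.1% of all 55681 probes.

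Most of the genes were detected. A probe counted as measured when the scanner software called its Cy5 signal well above background in 50% or more of the mice of a diet. Of the 75 probes, 51 were above background on all 23 arrays, 13 on none and 11 on some, and 52 (69.3%) counted as measured, against 52.5% of all probes. None of the 75 was saturated. By gene, 43 of 60 were measured. These were 13 of 19 carboxylesterases, 15 of 17 aldehyde dehydrogenases, 8 of 13 aldo-keto reductases, 3 of 4 carbonyl reductases and 4 of 7 flavin-containing monooxygenases.

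The carboxylesterases among the 17 genes that were not measured were Ces1a, Ces1b, Ces1h, Ces2h, Ces4a and Ces5a. The reductases were Akr1c6, Akr1c20, Akr1c21, Akr1cl, Akr1d1, the bile acid and steroid 5β-reductase, and Cbr2, the lung carbonyl reductase, whose probes were above background on 7 and on 2 of 23 arrays. Aldh1l2, the mitochondrial folate enzyme, and Aldh3b2 were above background on 1 array each. Fmo6 and Fmo9 were above background on none. These genes have no more than a bound here and enter no comparison. The Cy3 pool gave 42 measured genes in place of 43.

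Detection ran in blocks along the chromosomes. In the Ces1 and Ces5 cluster (chromosome 8, probes from 95544137 to 96038191), the 5 adjacent genes Ces1c, Ces1d, Ces1e, Ces1f and Ces1g were above background on all 23 arrays. Their outer neighbours Ces1a, Ces1h and Ces5a were on none, and Ces1b was on 2. In the Ces2 to Ces4 cluster (chromosome 8, 107265289 to 107673659), Ces2a, Ces2b, Ces2c, Ces2e, Ces2f, Ces2g and Ces3a were detected on all arrays. Ces2h was detected on 2 arrays and Ces4a on none, and Ces3b was detected in 9 of 12 HF and 9 of 11 HF-Q mice. In the Akr1c cluster (chromosome 13, 4089325 to 4592211), Akr1c14, Akr1c18, Akr1c13, Akr1c19 and Akr1c12 lay side by side and were detected on all arrays. The next genes Akr1c6, Akr1c20 and Akr1c21 were detected on 1 array at most, and Akr1e1 at the far end again on all 23. Fmo4, Fmo1 and Fmo2 were detected throughout on chromosome 1, next to Fmo6, which was not.

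**Figure D1:**
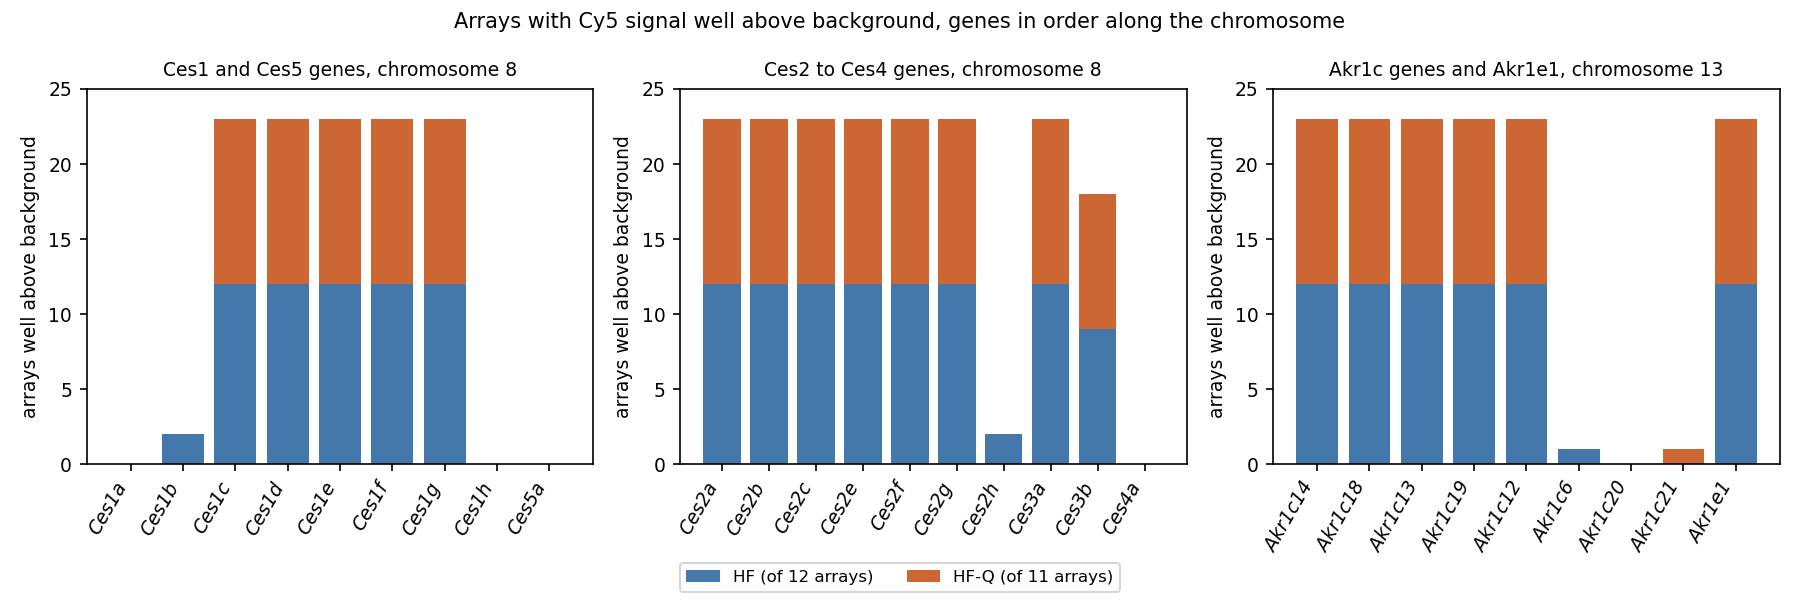
Number of arrays on which the Cy5 signal of each gene was well above background (vertical axis, HF and HF-Q arrays stacked), with the genes in their order along the chromosome in the Ces1 and Ces5, Ces2 to Ces4 and Akr1c clusters; the best probe of each gene is counted. The detected genes form runs, such as Ces1c to Ces1g and Akr1c14 to Akr1c12, and the next genes, Ces1b and Akr1c6, were above background on 2 arrays and 1 array.

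The measured genes varied between mice more than most genes. The median SD over the 23 mice was 0.243 on the log2 scale, against 0.163 over all 21477 genes tested, and 33 of the 43 lay above that median. The carboxylesterase Ces3a had the largest SD (0.567) and spanned 4.85-fold from the lowest to the highest mouse. Cbr3, a carbonyl reductase that acts on quinones and ketones, followed (SD 0.560, a 4.13-fold span). The widest spans in the other families were those of Aldh1a3 (SD 0.442), which makes retinoic acid from retinal, Akr1c19 (0.423), and Fmo1 (0.268). The steadiest were Cbr4, a subunit of the mitochondrial fatty acid synthesis reductase (SD 0.0950), and Aldh5a1, the succinic semialdehyde dehydrogenase (0.107). Ces2f was well above background in Cy5 on all 23 arrays, but in the Cy3 pool on 1 of 23, so its ratios to the pool are set against a signal at background and its level relative to the pool is not given.

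Many neighbouring genes of the Ces and Akr1c clusters rose and fell together from mouse to mouse, whereas none of the 3 pairs of Fmo1, Fmo2 and Fmo4 passed (r 0.0393 to 0.146). All 903 pairs of the 43 genes were correlated over the mice, with permutation p-values (100000 resamples, two-sided) adjusted by Benjamini-Hochberg over the 903. At adjusted p under 0.05 there were 196 pairs by Pearson r, 180 of them positive and 16 negative. Of the 196, 194 had the same sign within each of the 3 slides, and 110 also passed by Spearman rho. The points of every pair share a library and its normalization. The permutations treated the mice as exchangeable, although a smooth muscle marker score, given below, tended to rise with replicate number. Among the 41 genes with a value in every mouse, 18.7% of pairs had an r of at least 0.518, the lowest that passed. Over all pairs of genes tested without missing values this share was 5.17%. A negative r of that size or larger was found in 1.95% of the pairs of the 41 genes, against 4.18% of all pairs.

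The tightest pair was Akr1c12 and Akr1c13 (r 0.943, rho 0.914, both permutation p = 1e-05, the smallest these resamples can give, adjusted p = 6.02e-04 and 0.00164). Without the 2 mice farthest from the median of Akr1c12, r was 0.894, and by slide it was 0.944, 0.966 and 0.952. Akr1c19 followed both (r 0.906 with Akr1c13 and 0.805 with Akr1c12), and Akr1c14, a 3α-hydroxysteroid dehydrogenase, followed Akr1c19 (r 0.853). Akr1c18, the 20α-hydroxysteroid dehydrogenase that inactivates progesterone, lies between Akr1c14 and Akr1c13 and was the exception. Its r with the other 4 Akr1c genes was -0.228 to -0.115, and no pair of Akr1c18 with any of the other 42 genes passed.

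The carboxylesterases formed similar sets. Ces1d and Ces1g, lipid hydrolases of the Ces1 cluster, had r 0.925 and rho 0.895 (permutation p = 1e-05 for both, adjusted p = 6.02e-04 and 0.00164), an r of 0.873 without the 2 mice farthest from the Ces1d median, and 0.942, 0.920 and 0.969 by slide. Ces1f joined them (r 0.787 with Ces1g), whereas Ces1c did not, with an r of -0.215 to 0.221 with the other 4 detected Ces1 genes. Ces3a and Ces3b had r 0.858 and rho 0.821 (permutation p = 1e-05 and 3e-05, adjusted p = 6.02e-04 and 0.00226), with 0.860 without the 2 farthest mice and 0.874, 0.955 and 0.820 by slide. Ces2b and Ces2c had r 0.899 over the 19 mice with both values. In these last pairs the probe of Ces3a lists a Ces3b transcript and the probe of Ces2c a Ces2b transcript. Ces2f, with its pool signal at background, was the odd member of its cluster, with an r of -0.461 to -0.233 with its 7 measured neighbours, none of which passed.

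Genes on different chromosomes also moved together. Over all pairs, on the same chromosome or not, Ces1e had 22 passing pairs of 42. Cbr1, the broad-range carbonyl and quinone reductase, and Aldh3a2, the fatty aldehyde dehydrogenase, had 21 each. Akr7a5, an aflatoxin aldehyde reductase, and Cbr1 had r 0.853 (rho 0.806; permutation p = 1e-05 and 2e-05; adjusted p = 6.02e-04 and 0.00164; r 0.762 without the 2 farthest mice; 0.918, 0.780 and 0.865 by slide). Aldh3a2 followed Ces3a (r 0.836) and Fmo4 followed Ces2b (r 0.830). Running against this group were Aldh1l1, the cytosolic 10-formyltetrahydrofolate dehydrogenase, and Aldh4a1, which oxidises the proline breakdown product glutamate semialdehyde. They rose together (r 0.713) and fell as Ces3a rose (r -0.653 and -0.706). Between them, Aldh1l1 and Aldh4a1 held 12 of the 16 negative pairs. Negative pairs were rarer among the enzyme genes than among all genes, as given above. Aldh7a1, Ces2f, Akr1c18 and Fmo2 were in no passing pair.

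**Figure D2:**
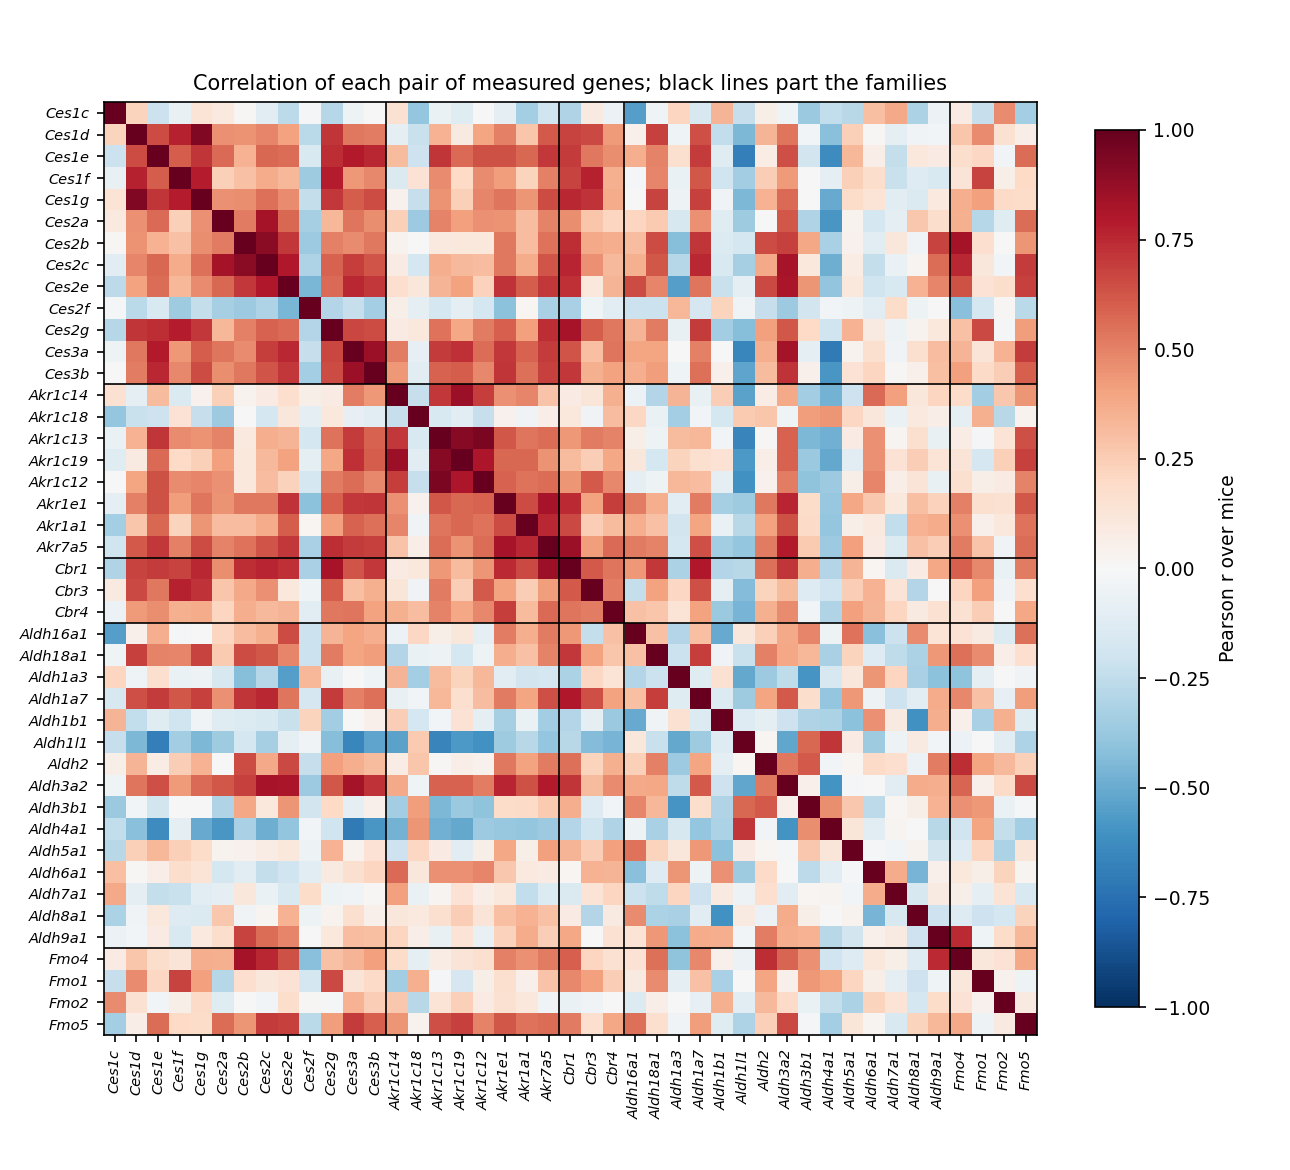
Pearson r over the mice (colour, from -1 in blue to 1 in red) for each pair of the 43 measured genes, ordered by family and, in the clusters, by position. The Akr1c block (r up to 0.943, Akr1c18 excepted) and the broad red area from Ces1d to Cbr4 stand beside the blue bands of Aldh1l1 and Aldh4a1.

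By the rule for likeness, the 5 genes most similar to Ces3a over the 23 mice were Acaa2, a mitochondrial thiolase of fatty acid oxidation (r 0.944), Mtarc1 (0.937), the esterase Aadac (0.927), Pramel29 (0.924) and the fatty acid carrier Cd36 (0.923). They were picked as the highest among the 21119 genes with a value in all 23 mice, so these values are a description.

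The level of several genes varied with marker scores of the scraping, though on most scores their share was no larger than that of all genes. Fewer cells of a type and less RNA per cell cannot be told apart in such samples. For each of 6 marker lists a score was taken as the mean log2 ratio of its measured markers in a mouse, and every gene was fitted on the score with diet in the model (limma, Benjamini-Hochberg adjusted p under 0.05 over all genes other than the markers). The distal, smooth muscle and pancreatic acinar scores were planned, and the enterocyte, fibroblast and crypt scores were added after seeing the data. The 43 genes were also correlated with the 6 scores, 258 relations in all, with permutation p-values adjusted over the 258.

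Aldh1a3 was the gene that moved most with the connective tissue markers. Its log2 ratio rose by 0.96 ± 0.11 (SE) per unit of the fibroblast score (adjusted p = 1.78e-06) and by 0.45 ± 0.081 per unit of the smooth muscle score (adjusted p = 3.69e-04). Over the 23 mice its r with the fibroblast score was 0.894 and its rho 0.777 (permutation p = 1e-05 and 2e-05, adjusted p = 0.00129 and 0.00258), with an r of 0.795 without the 2 farthest mice and 0.947, 0.941 and 0.856 by slide. With the smooth muscle score r was 0.764 and rho 0.724 (permutation p = 1e-05 and 1.6e-04, adjusted p = 0.00129 and 0.00688), 0.802 without the 2 farthest mice, and 0.834, 0.959 and 0.699 by slide. The mice with the lowest Aldh1a3 were HF-Q mice 2, 3 and 1, which also had the lowest smooth muscle scores. This score tended to rise with replicate number in both diets. HF mice 1 and 2 had -0.86 and -0.72, and HF mice 11 and 12 had 0.43 and 0.64. HF-Q mice 1 and 2 had -1.14 and -1.61, and HF-Q mice 10 and 11 had 0.89 and 0.25. The permutations treated the mice as exchangeable, and the part of replicate order in these relations was not tested.

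In the smooth muscle fit 7 of the 43 genes passed, where 26.5% of all genes did (16.7% rising and 9.79% falling). Aldh1a3 and Aldh1b1, a mitochondrial aldehyde dehydrogenase (slope 0.20 ± 0.066), rose with the score. Ces2e (slope -0.16 ± 0.048), Aldh8a1 (-0.18 ± 0.043), Aldh3b1 (-0.13 ± 0.043), Aldh16a1 (-0.10 ± 0.034) and Aldh3a2 (-0.17 ± 0.060) fell. The other measured probes of Aldh16a1 and Ces2e were not fitted on the scores. Their r with the probes used was 0.046 and 0.495. With median centring the Ces2e slope was -0.042 (adjusted p = 0.760), and its calls on the fibroblast and crypt scores were lost too (adjusted p = 0.602 and 0.557). In the fibroblast fit 6 passed, against 27.8% of all genes (16.9% rising and 10.9% falling). Aldh1a3 rose, and the same 5 genes fell. As shares of the 43, these were 16.3% and 14.0%.

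The opposite group followed the enterocyte markers. In that fit 12 of 43 passed, against 24.4% of all genes. The 11 that rose, where 10.5% of all genes did, were Ces2e, Ces2b, Ces2c, Fmo4, Fmo5, Cbr1, Aldh3b1, Aldh9a1, Aldh2, Aldh16a1 and Aldh3a2, and Aldh1a3 fell, as 14% of all genes did. Ces2e had the smallest p, with a slope of 0.88 ± 0.16 (adjusted p = 4.00e-04). Its r with the enterocyte score was 0.8005 and its rho 0.857 over 22 mice (permutation p = 2e-05 and 1e-05, adjusted p = 0.00172 and 0.00258), 0.773 without the 2 farthest mice, and 0.809, 0.865 and 0.737 by slide. Without the 2 mice farthest from the median score, HF mouse 3 and HF-Q mouse 7, 7 of the 43 genes passed. The share of all genes in that fit is not given here. In the crypt fit 13 of 43 passed, against 32.9% of all genes (19.2% rising and 13.6% falling), with Aldh1a3, Aldh1b1 and Ces1c rising and the other 10, Ces2e and Cbr1 among them, falling.

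In the limma fit Fmo1 was the single gene of the 43 that passed on the distal score, made of ileal genes such as the bile acid carrier Slc10a2 (slope -0.49 ± 0.10, adjusted p = 0.0299; 0.349% of all genes passed). Its r was -0.704 and its rho -0.562 (permutation p = 5.9e-04 and 0.00604, adjusted p = 0.0172 and 0.0575), and r was -0.412, -0.631 and -0.891 by slide. The relation rests in part on HF mouse 2, which had the highest distal score (1.07) and the lowest Fmo1 (-0.72). Without HF mice 2 and 3 the slope was -0.39 (adjusted p = 0.743) and r was -0.554. The adjusted p of the Fmo1 slope was 0.0568 with slide as a block, 0.107 in the authors' log2 table and 0.424 with median centring. By permutation r, Aldh5a1 (r -0.577, rho -0.550, permutation p = 0.00360 and 0.00740, adjusted p = 0.0372 and 0.0658) and Ces2g (r -0.599, rho -0.190, permutation p = 0.00405 and 0.384, adjusted p = 0.0402 and 0.688) also passed on the distal score. Without the 2 farthest mice r was -0.427 for Aldh5a1 and -0.0552 for Ces2g, so the relation of Ces2g rests on those mice. By slide r was -0.475, -0.755 and -0.450 for Aldh5a1 and -0.837, -0.333 and -0.586 for Ces2g. No gene of the 43 passed in the limma fit on the pancreatic acinar score, where 0.154% of all genes did; the smallest p there was that of Ces2b (slope 0.085 ± 0.030, adjusted p = 0.293).

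**Figure D3:**
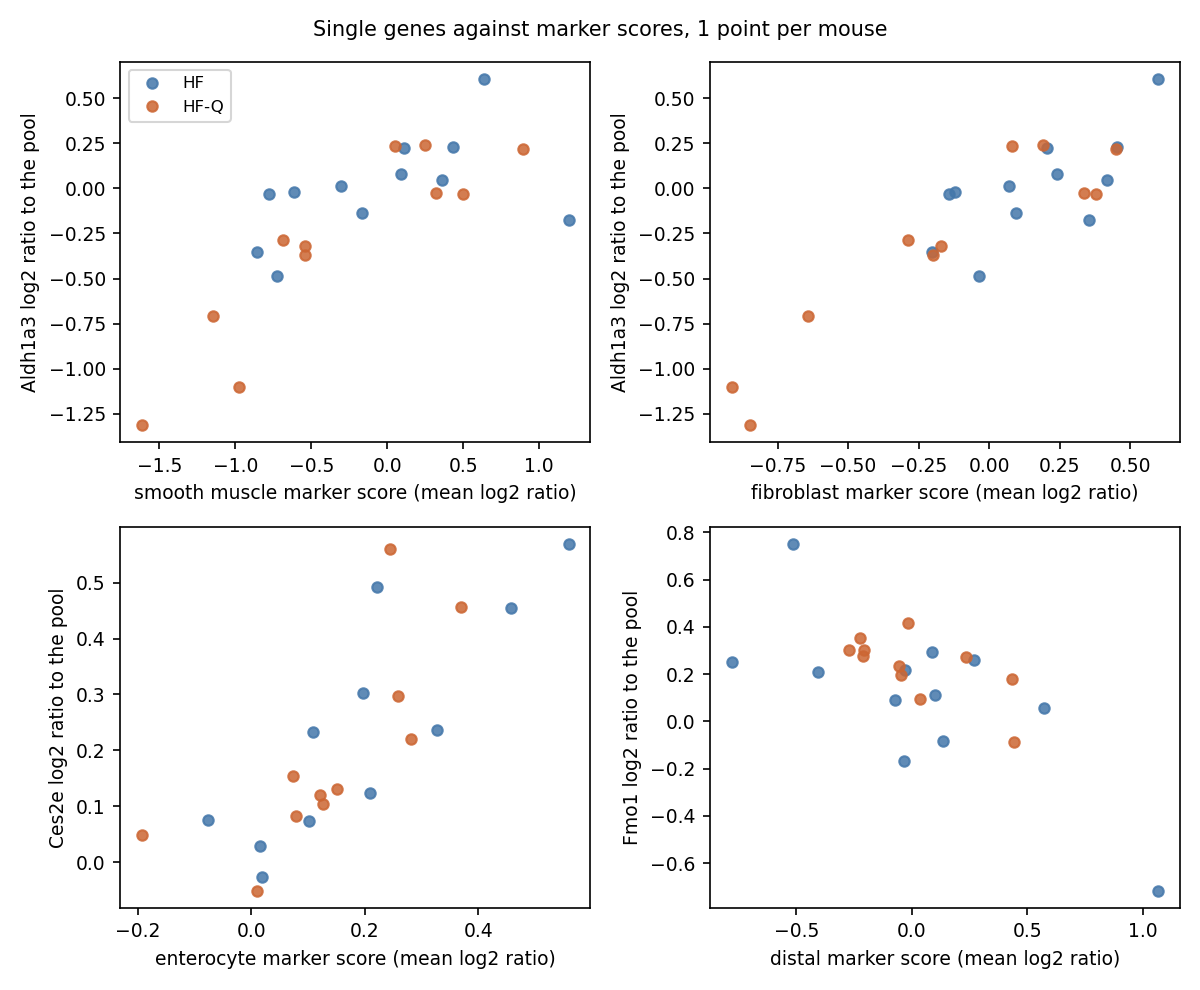
Log2 ratio to the pool of Aldh1a3, Ces2e and Fmo1 in each mouse (vertical axes) against marker scores (horizontal axes, mean log2 ratio of the markers), with HF and HF-Q mice coloured. Aldh1a3 rises with the smooth muscle and fibroblast scores, Ces2e with the enterocyte score, and the Fmo1 panel has a single HF mouse at a distal score of 1.07 and an Fmo1 value of -0.72.

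The diets were compared to ask whether adding quercetin to the high-fat diet altered these transcripts in the intestine. None of the 43 enzyme genes differed between the diets at adjusted p under 0.05 (limma, Benjamini-Hochberg over 21477 genes), where 0% of all genes were called and the smallest adjusted p was 0.951. At an unadjusted p under 0.05 there was 1 of 43 (2.33%), against 4.53% of all genes. The differences were small. The median log2 fold change was -0.016, against -0.0038 over all genes, and the 95% interval of 40 of the 43 lay within a 1.5-fold change in either direction. The exceptions were Ces3a, Aldh1a3 and Cbr3, whose intervals also hold larger changes. By direction 17 (39.5%) were higher and 26 lower, where 48.1% of all genes were higher. This split depended on the scaling: it was 29 to 14 with median centring in place of loess, which put the median of all genes at 0.049, 22 to 21 in the authors' log2 table and 21 to 22 with Cy5 alone. The mean marker scores of the diets were not equal either, and these differences were not tested. In HF-Q, all 6 measured smooth muscle markers, all 6 fibroblast markers and all 10 pancreatic acinar markers had lower means. Their score differences were -0.27, -0.31 and -0.59, against SDs over all mice of 0.70, 0.41 and 1.73. All 5 T cell markers had higher means (score difference 0.26, SD 0.27). The ranges overlapped in each. Markers of the other lists went both ways, such as the enterocyte markers (4 higher, 8 lower). With the smooth muscle score in the model, a fit added after seeing the data, 0 genes were called, and 3 of the 43 had an unadjusted p under 0.05 (Aldh16a1, Aldh8a1 and Fmo5, all lower), against 8.14% of all genes. With the fibroblast score 0 were called and 6 of the 43 were under 0.05 (the same 3 with Aldh3a2 and Ces2e lower, and Aldh1b1 higher), against 14.5%. The part of the pancreatic acinar and T cell markers in the enzyme values was not tested.

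**Figure D4:**
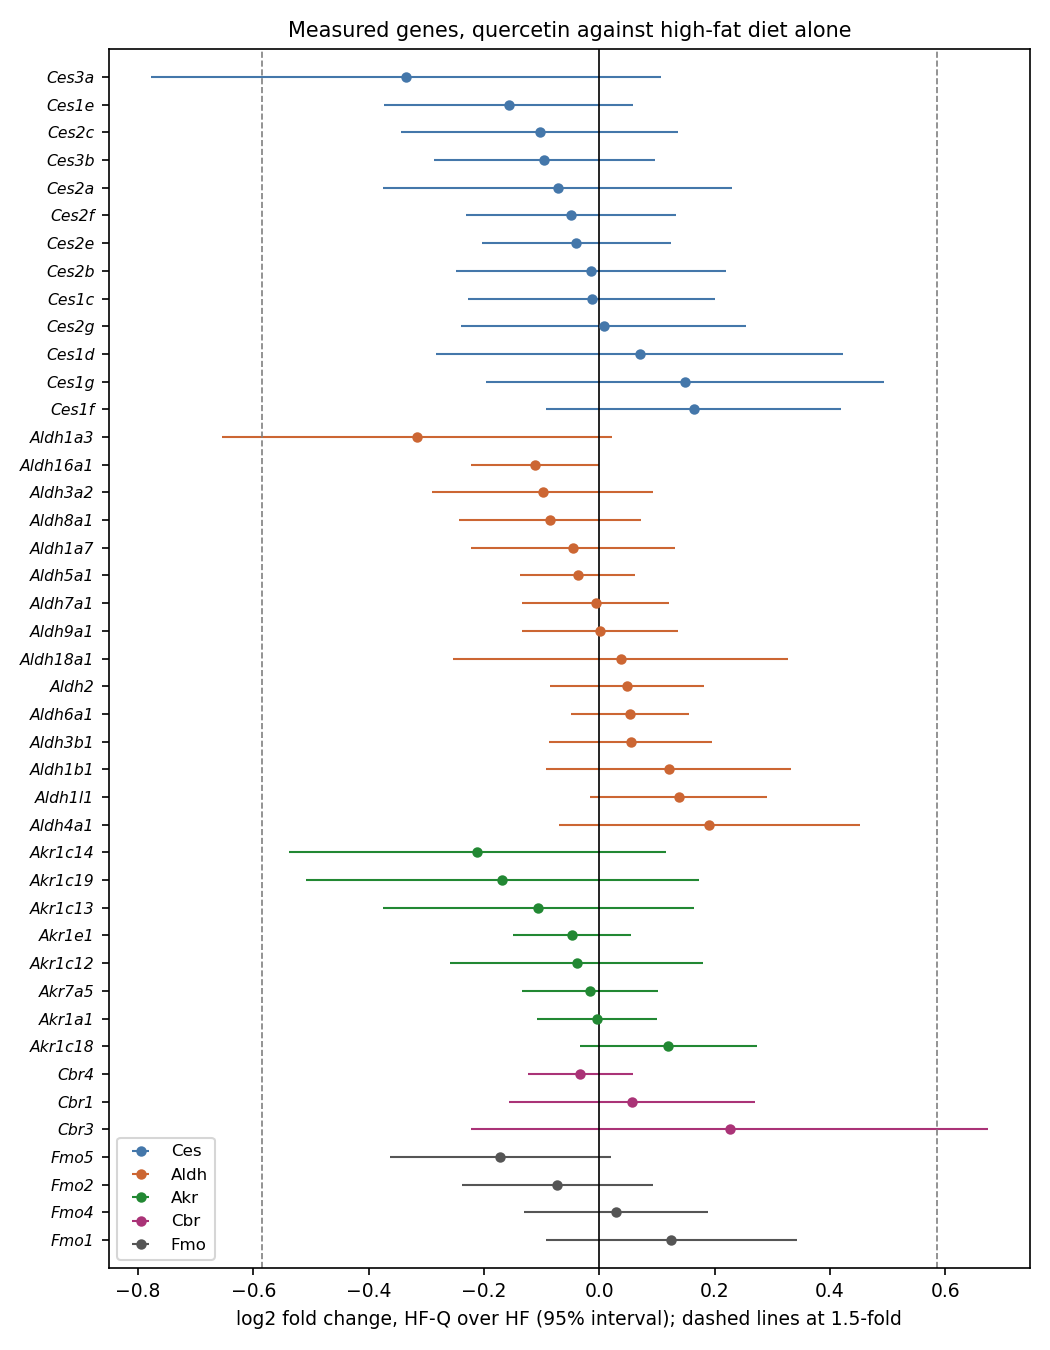
Log2 fold change of HF-Q over HF (points) with its 95% interval (bars) for each of the 43 measured genes, grouped by family. The dashed lines mark a 1.5-fold change, and the intervals of Ces3a, Aldh1a3 and Cbr3 reach beyond them.

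Among the 13 carboxylesterases 4 were higher and 9 lower with quercetin, with log2 fold changes of -0.34 to 0.16. Ces3a had the largest of them (-0.34 ± 0.21 SE, unadjusted p = 0.131). In HF its log2 ratios ran from -0.65 through a median of 0.14 to 1.16, and in HF-Q from -1.11 through -0.017 to 0.70. The ranges overlapped over most of their length, and 8 of 11 HF-Q mice lay below the HF median. Ces1f (0.16 ± 0.12) and Ces1g (0.15 ± 0.17) were at the other end. Of the Ces2 enzymes, Ces2a (-0.072 ± 0.15), Ces2b (-0.014 ± 0.11), Ces2c (-0.10 ± 0.12), Ces2e (-0.040 ± 0.079), Ces2f (-0.049 ± 0.089) and Ces2g (0.0075 ± 0.12) all lay within their error of 0. Ces2c was fitted on 10 HF and 9 HF-Q mice and Ces2e on 11 and 11, since the other spots were marked as outliers.

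Among the 15 aldehyde dehydrogenases 8 were higher and 7 lower. Aldh16a1, a family member thought to lack enzyme activity, had the single unadjusted p under 0.05 (log2 fold change -0.11 ± 0.054, p = 0.0491, adjusted p = 0.951). Its values ran from -0.19 through -0.035 to 0.19 in HF and from -0.43 through -0.099 to 0.049 in HF-Q. The 3 lowest HF-Q mice were below every HF mouse and the rest lay within the HF range. Its other measured probe gave -0.022 ± 0.055 and had an r of 0.046 with the probe used.

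Aldh1a3 had the next smallest p (-0.32 ± 0.16, unadjusted p = 0.0657). It ran from -0.49 through -0.0038 to 0.61 in HF and from -1.31 through -0.28 to 0.24 in HF-Q. The 3 lowest HF-Q mice, at -1.31, -1.10 and -0.71, lay below all HF mice and the other 8 lay among them. The difference was -0.38, -0.30 and -0.26 by slide. With the fibroblast score in the model, added after seeing the data, it was -0.021 ± 0.090, and with the smooth muscle score -0.20 ± 0.11.

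In the higher direction, Aldh1l1 ran from -0.20 through -0.0033 to 0.29 in HF and from -0.24 through 0.16 to 0.47 in HF-Q (0.14 ± 0.074, unadjusted p = 0.0755). Of the HF-Q mice, 9 of 11 exceeded the median of HF, and the lowest mice of both diets overlapped. Aldh4a1 ran from -0.60 through -0.12 to 0.32 in HF and from -0.45 through 0.023 to 0.69 in HF-Q (0.19 ± 0.13, unadjusted p = 0.145). That difference came from the third slide, at 0.66, against -0.061 and -0.012 on the others. The mitochondrial Aldh2, which clears acetaldehyde, differed by 0.048 ± 0.065.

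Of the 8 aldo-keto reductases 1 was higher and 7 lower. Akr1c18 was the higher gene (0.12 ± 0.074, unadjusted p = 0.118). It ran from -0.28 through 0.11 to 0.38 in HF and from -0.0066 through 0.16 to 0.55 in HF-Q. The lowest 4 mice were all HF, and the ranges overlapped above them. Akr1c14 (-0.21 ± 0.16), Akr1c19 (-0.17 ± 0.16), Akr1c13 (-0.11 ± 0.13) and Akr1c12 (-0.039 ± 0.11) were lower, and they are the genes shown above to vary together, so they are not 4 independent observations. Akr1c19 ran from -0.40 through 0.16 to 1.15 in HF and from -0.58 through 0.14 to 0.74 in HF-Q.

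Of the carbonyl reductases, Cbr3 was higher by 0.23 ± 0.22 (unadjusted p = 0.308). It ran from -1.08 through -0.31 to 0.85 in HF and from -0.61 through -0.13 to 0.96 in HF-Q, so both diets held mice at either end. Cbr1 (0.057 ± 0.10) and Cbr4 (-0.033 ± 0.044) lay close to 0. Of the flavin-containing monooxygenases, Fmo5, the main form of the mouse gut lining, was lower by 0.17 (log2 fold change -0.17 ± 0.093, unadjusted p = 0.0764), from -0.26 through 0.18 to 0.67 in HF and from -0.44 through -0.084 to 0.25 in HF-Q. Of 11 HF-Q mice, 9 lay below the HF median, and its other measured probes gave -0.14 ± 0.10 and -0.030 ± 0.099. Fmo1 (0.13 ± 0.11) ran from -0.72 through 0.16 to 0.75 in HF and from -0.087 through 0.27 to 0.42 in HF-Q, where the lowest and the highest mouse were both HF. Fmo2 (-0.072 ± 0.080) and Fmo4 (0.029 ± 0.078) completed the family.

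**Figure D5:**
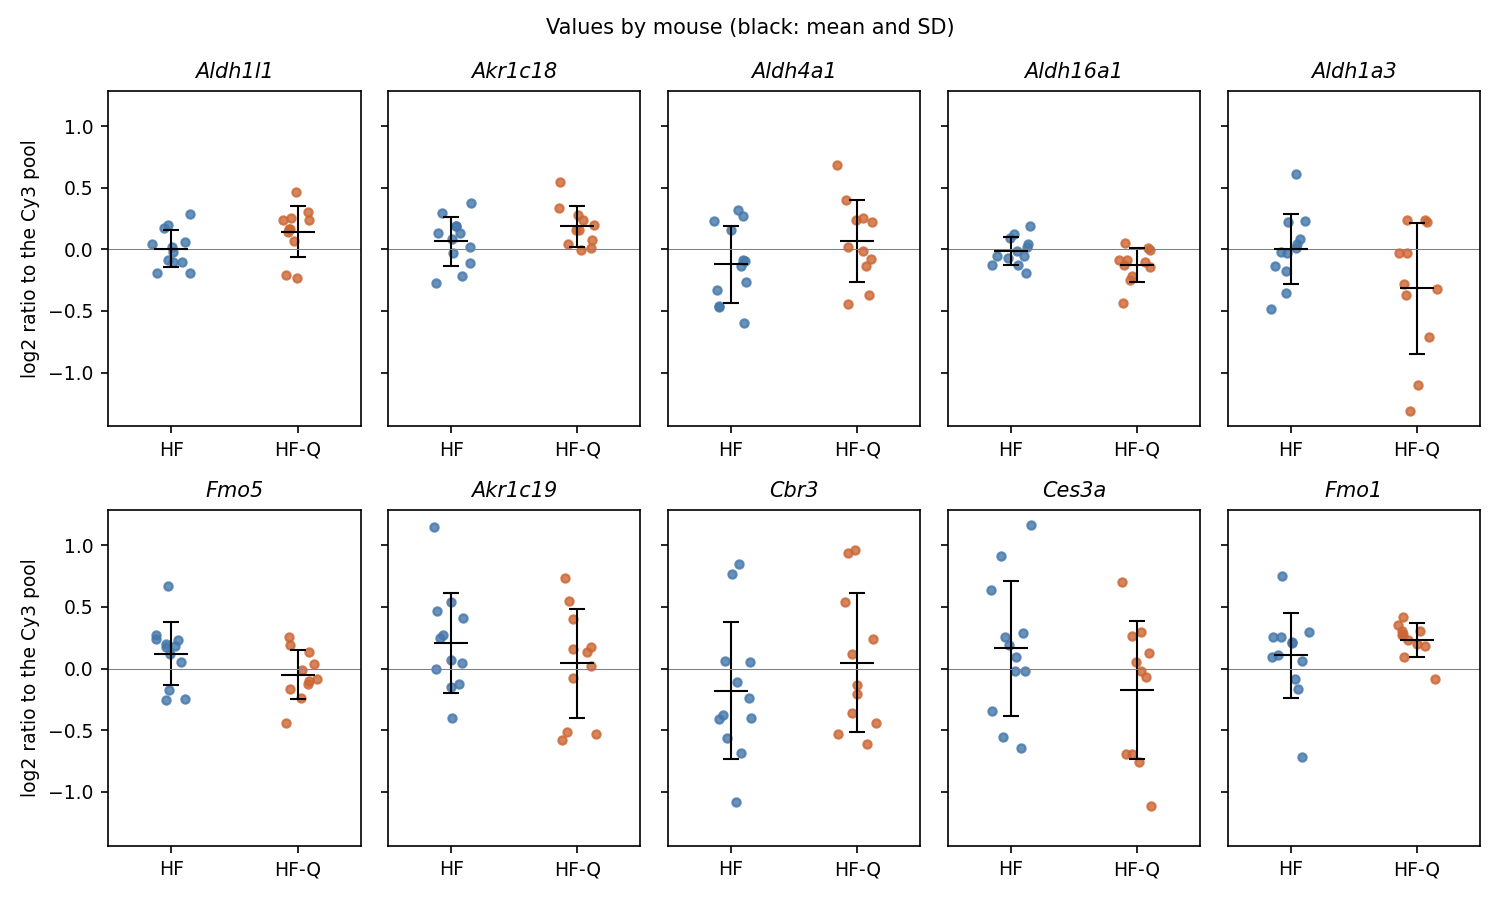
Log2 ratio to the Cy3 pool of each mouse (points) for 10 genes, in HF and HF-Q, with the mean and SD in black. The groups overlap in all 10, and the 3 lowest Aldh1a3 values (-1.31, -1.10 and -0.71) are HF-Q mice.

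Where a gene had several measured probes they did not always share a sign. Of 7 such genes, Aldh16a1, Fmo1 and Fmo5 had probes of a single sign and Aldh6a1, Cbr4, Ces2c and Ces2e did not. The probes of Ces2e differed by the most, with -0.040 ± 0.079 for the probe used and 0.13 ± 0.084 for the other (r 0.495 between them).

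Genes of the same steps of metabolism outside these families, from a list of 55, gave a similar picture. Of 48 measured, 15 were higher and 33 lower, 0 were called, and 3 had an unadjusted p under 0.05, where 48.1% of all genes were higher and 4.53% were under 0.05. The split depended on the scaling, since the median log2 fold change of the 48 was -0.052 but 0.021 with median centring. The 3 genes were Mgll, the monoacylglycerol lipase (-0.40 ± 0.12, p = 0.00341), the aryl hydrocarbon receptor Ahr (-0.15 ± 0.068, p = 0.0401) and the quinone reductase Nqo1 (0.16 ± 0.077, p = 0.0450), all with an adjusted p of 0.951 in limma. Cyb5a, the electron donor cytochrome b5, was next in the higher direction (0.094 ± 0.055, p = 0.0996). Of the 10 regulators on the list 3 were higher and 7 lower. After Ahr, the nuclear receptor Ppara had the smallest p (-0.25 ± 0.13, p = 0.0652, or 0.0375 with slide as a block, adjusted p = 0.951 in limma). The nuclear receptors Nr1i2 (-0.076 ± 0.075) and Nr1i3 (-0.058 ± 0.089) and the oxidative stress factor Nfe2l2 (0.0059 ± 0.063) lay within about an SE of 0.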

How the data were processed

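RNA of 23 mice was hybridised to 2-colour Agilent arrays. The scanner software was Agilent Feature Extraction 10.7.3.1, per the submitters' processing notes, and, per the file headers, the deposited spot, background and flag columns hold intensity values with no normalization between arrays. The authors' log10 ratio in the same files and a further table of the authors' log2 values, made by a method not given in the sources, served as alternatives only.

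R 4.3.3 with limma 3.58.1 was used throughout: normexp background correction (offset 50), loess within arrays with 3671 control spots at weight 0, outlier spots (260 to 355 per array) set to missing, spots averaged per probe. Probes that were well above background in 50% or more of the mice of a diet were kept (29249), and the brightest probe stood for its gene. The diets were compared over all mice with lmFit and eBayes (two-sided), and p-values were adjusted by Benjamini-Hochberg over 21477 genes at a threshold of 0.05. No 2 arrays correlated above 0.723. On simulated data 200 of 21477 genes were changed. The fit recovered 98% of changes of 1 and 86% of changes of 0.5 on the log2 scale, with 8 false calls. The noise was drawn independently for each gene at its own SD, without the correlation between genes or the slides of these arrays. The changed genes were drawn from all genes, whose median SD was 0.163, against 0.243 for the enzyme genes. These shares therefore do not give the power for the enzyme genes. The number of arrays limits the precision. Nothing in the labels says more of the replicates than that each was a mouse.

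Positions are those of the scanner files on mm9. RefSeq (GRCm38.p6) supplied names for 31381 probes. Probe sequences come from the scanner files. The values of 1 gene are not reported here. Values by mouse are given for the 3 genes with the smallest unadjusted p in each direction and for the most variable gene of each family. The genes, lists and tests were chosen with earlier results of these data known, and pair correlations were added after seeing the data. Alternatives were other background and scaling steps, probe filters, slide and replicate blocks, array weights and single slides.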

Additional observations from a re-analysis of the deposited data

How the results depend on the processing

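No gene was called for diet under any of the 16 other settings. The median log2 fold change of the enzyme genes moved by less than the spread between mice (SD 0.12) in each. That spread is wide beside the median itself (-0.016), whose sign turned in some settings. It was 0.052 with median centring and 0.0039 in the authors' log2 table. Counts of genes varying with marker scores depended on processing, and the causes were not tested. The shares of all genes that passed under these other settings are not given here. The counts below therefore describe the processing and are no result about the enzyme genes. On the distal score 1 gene passed, against 0 with median centring, in the authors' log2 table, with slide as a block and without the 2 farthest mice. On the enterocyte score 12 passed, against 31 with median centring, 21 in the authors' log2 table and 7 without the 2 farthest mice. On the fibroblast score 6 passed, against 13 in the authors' log2 table and 3 without HF-Q mice 2 and 3. On the crypt score 13 passed, against 5 with median centring. Signs turned for Aldh4a1 on slide 1 (-0.061) and slide 2 (-0.012), for Fmo1 on slide 2 (-0.064), and for the slope of Aldh5a1 on the distal score with median centring (0.0020). The slope of Ces2e no longer passed with median centring on the smooth muscle (adjusted p = 0.760), fibroblast (0.602) and crypt (0.557) scores, nor that of Cbr1 on the crypt score (0.410). The r of the pairs Akr1c12 and Akr1c13, Ces1d and Ces1g, Ces2b and Ces2c, Ces3a and Ces3b, and Akr7a5 and Cbr1 stayed between 0.777 and 0.985 under 6 other settings.

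HF and HF-Q mice share replicate numbers, but only 5 of 11 same-numbered pairs had deviations correlated above 0.1 (-0.347 to 0.394), and 2 of 11 HF mice correlated best with their own number. With the replicate block, without HF mouse 12, 0 genes were called, 947 had an unadjusted p under 0.05 against 972, and the median log2 fold change was -0.023 over the enzyme genes and -0.055 over the partner genes. Genes near background carry only a bound, and the number of genes measured was 42 to 51 under the other detection rules.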
